A study of Mus musculus with 12 samples.

Results

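Prokr1, Arsj, Ydjc, Rasl11a, Ppargc1b and Dus4l are genes that in TRAMP-C mouse prostate tumour cells had some of the largest or most consistent falls in low oxygen. They are 6 of the 9609 genes with a detected probe and carry 10 probes, of which 9 were detected. They were picked from the hypoxia against normoxia contrast itself, overall and within single transfections, so their hypoxia values are given as a description with no test. TRAMP-C is a line from a prostate tumour of a male C57BL6 TRAMP mouse. Cells were nucleofected with FOXA2 and HIF-1a plasmids together, with FOXA2 alone, with HIF-1a alone or with pcDNA, the empty vector, and every group went through that transfection. From 48 h after transfection, cells of each kind were kept for 12 h in 1% oxygen (hypoxia, 2 arrays per transfection) or in normoxia (1 array per transfection), and RNA was read on an Illumina Mouse-6 BeadChip. The plasmids were expressed transiently in 1 cell line, and the labels do not state whether replicates are separate cultures. The p-values thus cover the variation among these arrays, which may be technical.

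Cells in low oxygen stabilise hypoxia-inducible factor (HIF), which switches on genes of glycolysis, blood vessel growth and pH control, while costly work such as ribosome production and mitochondrial growth is turned down. The genes described here belong to different branches of cell physiology. They are a peptide hormone receptor, a sulfatase, a carbohydrate deacetylase homologue, a small GTPase, a coactivator of mitochondrial genes and a tRNA-modifying enzyme.

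Levels are background-corrected, quantile-normalised log2 intensities, and a probe was called above background on an array at a detection p-value under 0.01. Mean raw intensity was 298 to 559 and the number of detected probes 15322 to 17182 per array. The highest value of each belonged to replicate 1 of the FOXA2 plus HIF-1a hypoxia group. The falls of the 6 genes are also given without that array, while correlations are given only with it. Both plasmids were seen where the labels place them, with Foxa2 at 9.27 to 10.98 on the arrays with its plasmid and 6.14 to 7.07 on those without, and Hif1a at 11.98 to 13.18 with its plasmid and 9.06 to 9.64 without. All 9 genes of a hypoxia check list rose, among them Ankrd37 by 4.71 ± 0.16 and Vegfa by 1.73 ± 0.12 on the log2 scale. Among prostate epithelial markers, Krt8, Krt14 and Cdh1 were measured, with a summed level of 378 to 680 intensity units in hypoxia and 451 to 527 in normoxia, while Krt18, Krt5, Trp63, Epcam, Pbsn, Hoxb13, Foxa1 and Tmprss2 did not pass the detection filter. Of 10 mesenchymal markers 9 were measured, with Fap not detected, and their summed level was 27240 to 46271 intensity units in hypoxia and 29501 to 30736 in normoxia. Immune markers were measured for 2 of 10 (Csf1r and Cd14, not Ptprc) and summed to 464 to 884 units in hypoxia and 383 to 423 in normoxia. Endothelial markers were measured for 1 of 8 (Flt1, not Pecam1 or Cdh5), at 314 to 582 units in hypoxia and 191 to 222 in normoxia. The part of these markers in the falls below was not tested.

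In the mouse genome build GRCm38.p6, by the RefSeq annotation, Prokr1 spans chr6:87578586-87590762, Arsj chr3:126363852-126440374, Ydjc chr16:17146949-17148857, Rasl11a chr5:146845071-146847726 and Dus4l chr12:31640050-31654866. Where in each transcript the probes lie was not analysed here. The 250 bases upstream of the gene start used in the RefSeq promoter table were searched on both strands for the HIF core motifs ACGTG and GCGTG, the E-box CACGTG, which contains ACGTG, and the forkhead motif TGTTTAC. The windows of Prokr1 and Rasl11a each held 1 GCGTG, and those of Arsj and Dus4l held neither HIF core. The start of that match lay 32 bases upstream of that gene start in Prokr1 and 67 bases upstream in Rasl11a. The start used lies 19 bases inside the span given above for Prokr1 and 40 bases inside it for Dus4l. None of these 4 windows held ACGTG, the E-box or the forkhead motif. No window is reported for Ydjc or Ppargc1b, so their motifs are not known from this search. Across the 32851 windows of the same length in the RefSeq table, 28.2% held GCGTG, 16.6% held ACGTG, 38.6% held either, 6.02% held the E-box and 3.17% the forkhead motif. A match is only a run of letters and does not show that a factor binds there. The windows of Prokr1 (chr6:87590744-87590993, minus strand), Rasl11a (chr5:146844821-146845070, plus strand) and Arsj (chr3:126363602-126363851, plus strand) are printed 5′ to 3′ to set a receptor gene and a GTPase gene with the motif beside a sulfatase gene without it, with the GCGTG match in capitals (on the opposite strand, hence CACGC, in Rasl11a).
Prokr1: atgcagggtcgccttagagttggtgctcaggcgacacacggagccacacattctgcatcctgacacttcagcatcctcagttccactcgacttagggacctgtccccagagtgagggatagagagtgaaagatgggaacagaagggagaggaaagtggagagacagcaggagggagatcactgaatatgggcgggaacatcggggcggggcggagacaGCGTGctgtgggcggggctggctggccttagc
Rasl11a: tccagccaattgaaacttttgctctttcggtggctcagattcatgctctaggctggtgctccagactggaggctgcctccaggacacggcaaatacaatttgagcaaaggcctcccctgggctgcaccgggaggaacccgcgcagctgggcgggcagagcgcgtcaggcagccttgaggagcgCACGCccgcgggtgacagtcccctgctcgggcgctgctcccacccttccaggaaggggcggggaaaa
Arsj: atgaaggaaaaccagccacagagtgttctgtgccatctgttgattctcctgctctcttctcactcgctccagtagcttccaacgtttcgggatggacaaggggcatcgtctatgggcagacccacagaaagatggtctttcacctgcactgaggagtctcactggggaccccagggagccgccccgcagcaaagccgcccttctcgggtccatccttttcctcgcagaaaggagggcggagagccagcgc

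All 6 genes were lower on every one of the 8 hypoxia arrays than on any of the 4 normoxia arrays. Over all genes, 13.2% showed that separation downward, and 30.4% were called at an adjusted p under 0.05 in either direction. Since the genes were picked on this contrast nothing is read from their count. By size of fall among the 9609 genes, Prokr1 ranked 1, Arsj 2, Ydjc 5, Rasl11a 8, Ppargc1b 10 and Dus4l 36. The genes in between up to rank 10 were Slc11a2, Fjx1, Atoh8, H1f2 and Hgh1. Just inside the tenth place was Ppargc1b, with a difference of -1.51, and just outside it Cavin2, with -1.49. A more than 2-fold fall was seen in 133 genes, and the median difference over all genes was -0.02. Ranked instead by the p-value of the fit among falling genes, the order was Dus4l 1, Rasl11a 2, Arsj 6, Ydjc 16, Ppargc1b 20 and Prokr1 56. Dus4l, with the smallest of these 6 falls, had the smallest SE. Both rankings use the contrast from which the genes were picked, so they describe that pick and test nothing.

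**Figure D1:**
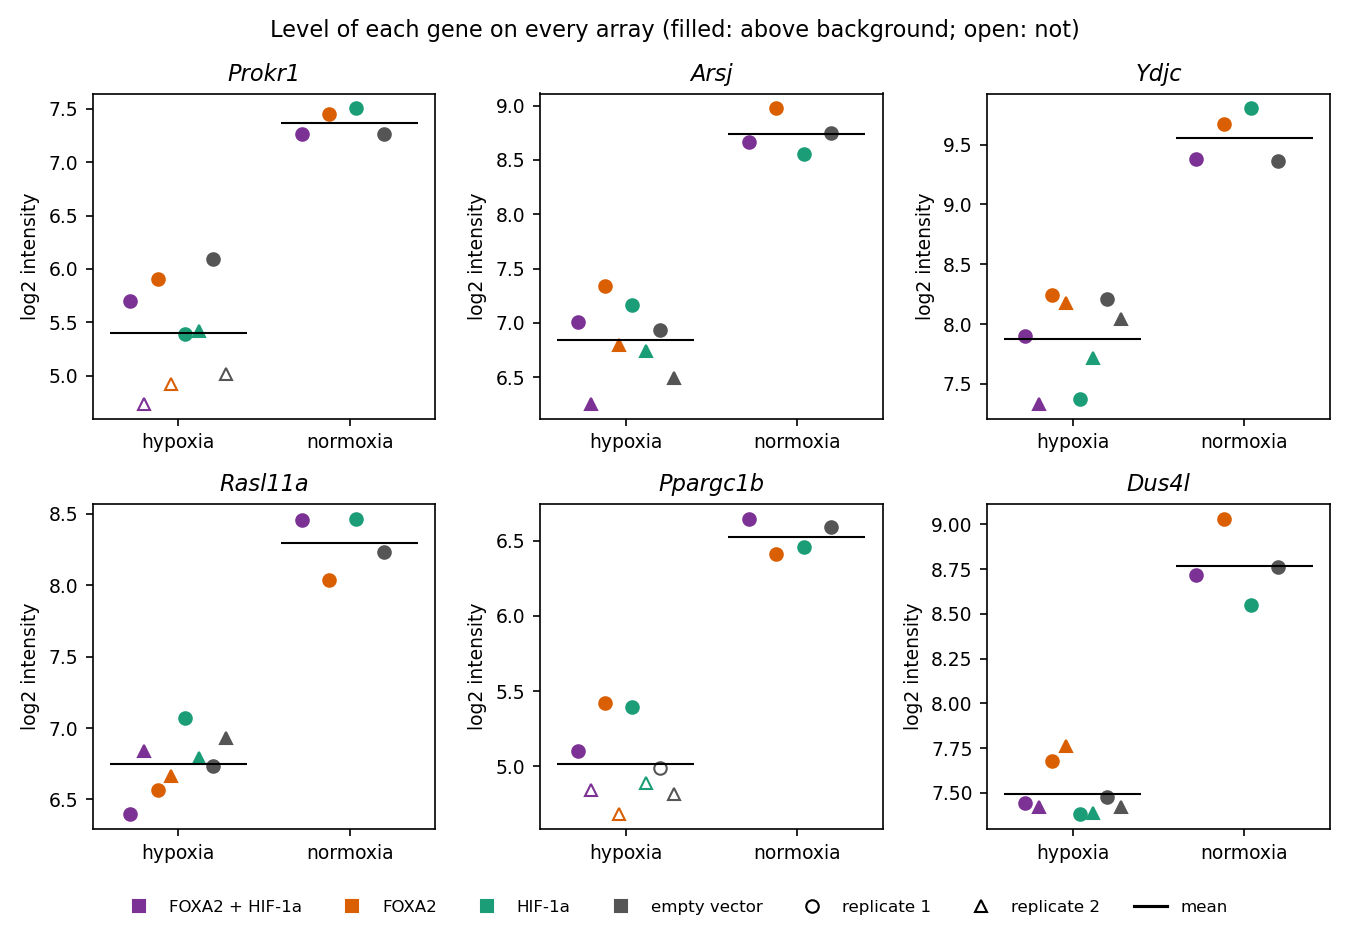
Log2 intensity of each gene on every array, hypoxia left and normoxia right, coloured by transfection, with circles for replicate 1 and triangles for replicate 2. Filled points were above background and black lines are means; in all 6 panels the 8 hypoxia points lie below the 4 normoxia points.

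Prokr1 encodes a G protein-coupled receptor for the prokineticins, secreted peptides that act on endothelium, gut and neurons. In hypoxia its log2 intensity on replicates 2 and 1 was 4.73 and 5.69 with both plasmids, 4.92 and 5.91 with FOXA2, 5.42 and 5.39 with HIF-1a, and 5.02 and 6.10 with empty vector. In normoxia it was 7.26 with both plasmids, 7.45 with FOXA2, 7.50 with HIF-1a and 7.27 with empty vector. The normoxia arrays were close to each other, while in 3 transfections replicate 2 in hypoxia was far below replicate 1 and not above background. Prokr1 averaged 5.40 ± 0.49 in hypoxia (SD, n = 8) and 7.37 ± 0.13 in normoxia (SD, n = 4, over all transfections), a difference of -1.97 ± 0.24 (SE) that left 25.5% of the normoxia level. In such bulk RNA, fewer cells expressing a gene and less RNA per cell cannot be told apart. The receptor was above background on 5 of 8 hypoxia arrays and on all 4 normoxia arrays. Its other probe was not above background on any array, so it gives no second reading of the gene. With the larger offset of 50 in the background correction the Prokr1 difference was -1.37.

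Arsj encodes arylsulfatase J, a member of the sulfatase family, enzymes that remove sulfate groups from their substrates. Its levels in hypoxia on replicates 2 and 1 were 6.25 and 7.01 with both plasmids, 6.80 and 7.34 with FOXA2, 6.75 and 7.17 with HIF-1a, and 6.49 and 6.94 with empty vector. The normoxia levels were 8.67 with both plasmids, 8.98 with FOXA2, 8.55 with HIF-1a and 8.74 with empty vector. Every array was above background, and replicate 2 in hypoxia was the lower one in all 4 transfections. The mean was 6.84 ± 0.35 in hypoxia (SD, n = 8) and 8.73 ± 0.18 in normoxia (SD, n = 4), a difference of -1.89 ± 0.17 (SE), or 27.0% of the normoxia level. The second Arsj probe averaged 6.15 ± 0.43 in hypoxia and 7.90 ± 0.11 in normoxia, a difference of -1.75. It was above background on 7 of 8 hypoxia arrays and 4 of 4 normoxia arrays, and on it too the hypoxia arrays, 5.30 to 6.66, lay below the normoxia arrays, 7.83 to 8.05.

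Ydjc is the mammalian homologue of a bacterial deacetylase of chitin-derived sugars. With both plasmids its hypoxia levels on replicates 2 and 1 were 7.33 and 7.90, with FOXA2 8.18 and 8.24, with HIF-1a 7.72 and 7.37, and with empty vector 8.04 and 8.21. In normoxia Ydjc stood at 9.38 with both plasmids, 9.67 with FOXA2, 9.80 with HIF-1a and 9.36 with empty vector. In hypoxia all 4 arrays with the HIF-1a plasmid lay below all 4 arrays without it, while in normoxia the HIF-1a array was the highest of the 4. How many of all genes separate this way by plasmid was not counted, so nothing is read from that separation. Ydjc averaged 7.87 ± 0.37 in hypoxia (SD, n = 8) and 9.55 ± 0.22 in normoxia (SD, n = 4), a difference of -1.68 ± 0.16 (SE) that left 31.2% of the normoxia level.

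The second Ydjc probe fell by 1.56 on the log2 scale but ordered the transfections differently. On it the 4 hypoxia arrays with the HIF-1a plasmid read 7.70 and 7.61 with both plasmids and 7.44 and 7.91 with HIF-1a alone, against 7.60 and 7.68 with FOXA2 and 7.55 and 7.86 with empty vector. These 2 sets overlapped fully. Over the 8 hypoxia arrays the 2 Ydjc probes had r = -0.20, against 0.65 for the 2 Arsj probes and 0.62 for the 2 Rasl11a probes. The drop in low oxygen was therefore seen on both Ydjc probes, and the lower hypoxia level with the HIF-1a plasmid on 1 of them. Ydjc overlaps Ccdc116 by 854 bases, and no detected probe was named Ccdc116.

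**Figure D2:**
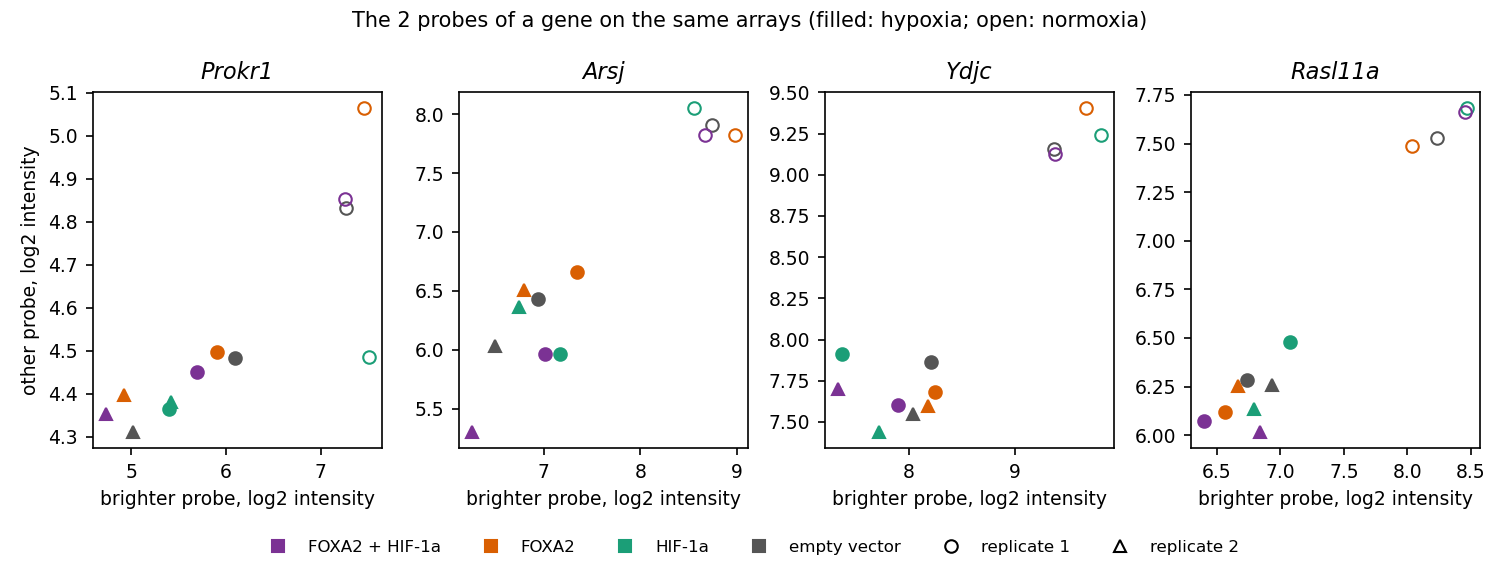
Log2 intensity of the brighter probe (x) and the other probe (y) of the 4 genes with 2 probes, 1 point per array, coloured by transfection, filled for hypoxia and open for normoxia. For Arsj, Ydjc and Rasl11a both probes set the hypoxia arrays below the normoxia arrays; within hypoxia the Ydjc probes do not rise together (r = -0.20), and the other Prokr1 probe was not above background on any array.

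Rasl11a encodes a small GTPase of the RAS-like family, described as a nucleolar regulator of ribosomal RNA transcription. Hypoxia replicates 2 and 1 gave 6.84 and 6.40 with both plasmids, 6.67 and 6.57 with FOXA2, 6.79 and 7.07 with HIF-1a, and 6.93 and 6.74 with empty vector. Normoxia gave 8.46 with both plasmids, 8.04 with FOXA2, 8.47 with HIF-1a and 8.23 with empty vector. The FOXA2 array was the lowest in normoxia, and the hypoxia arrays showed no common order of the replicates. Rasl11a averaged 6.75 ± 0.21 in hypoxia (SD, n = 8) and 8.30 ± 0.20 in normoxia (SD, n = 4), a difference of -1.55 ± 0.12 (SE), or 34.2% of the normoxia level. Its second probe gave -1.39, with hypoxia arrays at 6.02 to 6.48 and normoxia arrays at 7.49 to 7.68.

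Ppargc1b encodes PGC-1beta, a coactivator that works with estrogen-related receptors to raise genes of mitochondria and fatty acid oxidation. The gene spans chr18:61291445-61400756 in GRCm38.p6 and has 1 probe, the dimmest of the 6. Its hypoxia levels on replicates 2 and 1 were 4.84 and 5.11 with both plasmids, 4.68 and 5.42 with FOXA2, 4.89 and 5.40 with HIF-1a, and 4.82 and 4.99 with empty vector. In normoxia the levels were 6.65 with both plasmids, 6.41 with FOXA2, 6.46 with HIF-1a and 6.59 with empty vector. All 4 normoxia arrays were above background, but in hypoxia 3 of 8 were, and none of these was a replicate 2 array or an empty-vector array. The mean was 5.02 ± 0.27 in hypoxia (SD, n = 8) and 6.53 ± 0.11 in normoxia (SD, n = 4), a difference of -1.51 ± 0.15 (SE), or 35.2% of the normoxia level. In empty-vector cells, where neither hypoxia array was above background, Ppargc1b was at least 2.43-fold lower in hypoxia. Such a bound compares the normoxia level with the dimmest detected probe of each hypoxia array. The size of this difference depended on the treatment of dim signals, and was -0.92 with the offset of 50.

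Dus4l encodes a dihydrouridine synthase, an enzyme family that reduces uridine bases in tRNA. On its single probe, hypoxia replicates 2 and 1 read 7.42 and 7.44 with both plasmids, 7.76 and 7.68 with FOXA2, 7.39 and 7.38 with HIF-1a, and 7.42 and 7.48 with empty vector. On the normoxia arrays Dus4l read 8.72 with both plasmids, 9.03 with FOXA2, 8.55 with HIF-1a and 8.76 with empty vector. Replicates nearly coincided, and the order of the transfections was alike at both oxygen levels, with FOXA2 highest and HIF-1a lowest. Dus4l averaged 7.50 ± 0.14 in hypoxia (SD, n = 8) and 8.76 ± 0.20 in normoxia (SD, n = 4). The difference of -1.27 ± 0.08 (SE) left 41.5% of the normoxia level.

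Within single transfections the falls had different ranges from gene to gene. Dus4l ran between -1.31 and -1.16 over the 4 transfections, with HIF-1a alone the smallest fall. Ydjc ran between -2.26 with HIF-1a and -1.24 with empty vector on its brighter probe, and between -1.77 with FOXA2 and -1.45 with empty vector on the second. For Prokr1 the differences were -2.05 with both plasmids, -2.04 with FOXA2, -2.10 with HIF-1a and -1.71 with empty vector, and for Arsj -2.04, -1.90, -1.59 and -2.03 in the same order of transfections. The Rasl11a differences were -1.84 with both plasmids, -1.42 with FOXA2, -1.53 with HIF-1a and -1.40 with empty vector. For Ppargc1b they were -1.67 with both plasmids, -1.36 with FOXA2 and -1.31 with HIF-1a, beside the bound given above for empty vector. Falls in single transfections were among the values used to pick Ydjc, Rasl11a and Dus4l, and differences of the falls between transfections were not tested.

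**Figure D3:**
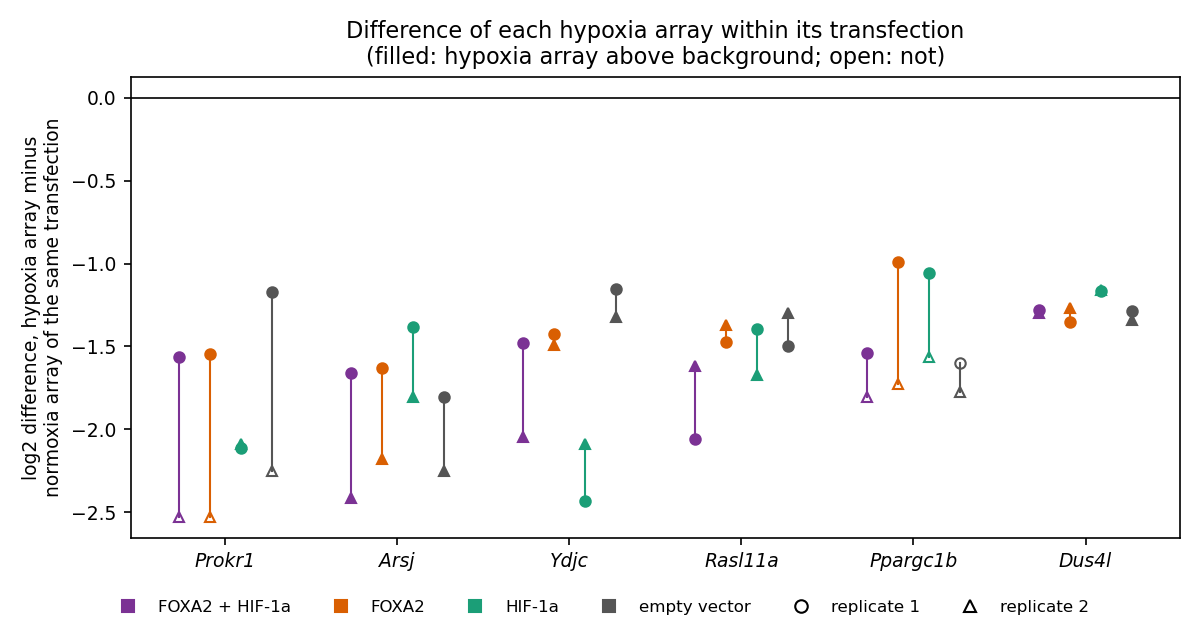
Log2 difference of each hypoxia array from the normoxia array of its own transfection, for each gene, coloured by transfection, with circles for replicate 1, triangles for replicate 2 and open symbols where the hypoxia array was not above background. All 48 points lie below 0; those of Dus4l lie closest together and those of Prokr1 and Ydjc spread most.

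Every normoxia array carried replicate number 1, so the hypoxia replicates were compared with each other in a fit of transfection plus replicate over the 8 hypoxia arrays. Prokr1 and Arsj were lower in replicate 2. Prokr1 averaged 5.02 in replicate 2 and 5.77 in replicate 1, a difference of -0.75 ± 0.19 (SE, limma adjusted p = 0.032), and was lower in 3 of 4 pairs. Arsj averaged 6.57 in replicate 2 and 7.11 in replicate 1, a difference of -0.54 ± 0.11 (SE, limma adjusted p = 0.016), and was lower in 4 of 4 pairs. Of all genes 16.5% were called in this comparison, 8.01% lower and 8.44% higher in replicate 2. These are 1581 genes, and 477 were called without either FOXA2 hypoxia array and 664 without either control hypoxia array. Prokr1 was above background on 1 of 4 replicate 2 arrays and on 4 of 4 replicate 1 arrays.

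The other 4 genes did not pass that test. Consistent falls were among the reasons for picking the genes, so nothing is read from this. Ppargc1b was above background on 0 of 4 replicate 2 arrays and 3 of 4 replicate 1 arrays, with measured means of 4.81 in replicate 2 and 5.23 in replicate 1 (limma adjusted p = 0.059, and 0.049 without the FOXA2 plus HIF-1a pair). Since replicate 2 gives only a bound there, no fold is stated. Ydjc differed by -0.11 ± 0.15 and Rasl11a by 0.11 ± 0.14. Dus4l, picked for the evenness of its fall, averaged 7.50 in replicate 2 and 7.49 in replicate 1. The call of Prokr1 was lost without the FOXA2 plus HIF-1a pair (adjusted p = 0.070), without either control hypoxia array (0.129), without either FOXA2 hypoxia array (0.127) and with the larger offset (0.056). The call of Arsj was lost without either control hypoxia array (adjusted p = 0.071), without either FOXA2 hypoxia array (0.096) and when its 2 probes were averaged (0.087). In 3 of the 4 transfections the replicates also lie on different slides, so replicate and slide cannot be told apart there.

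**Figure D4:**
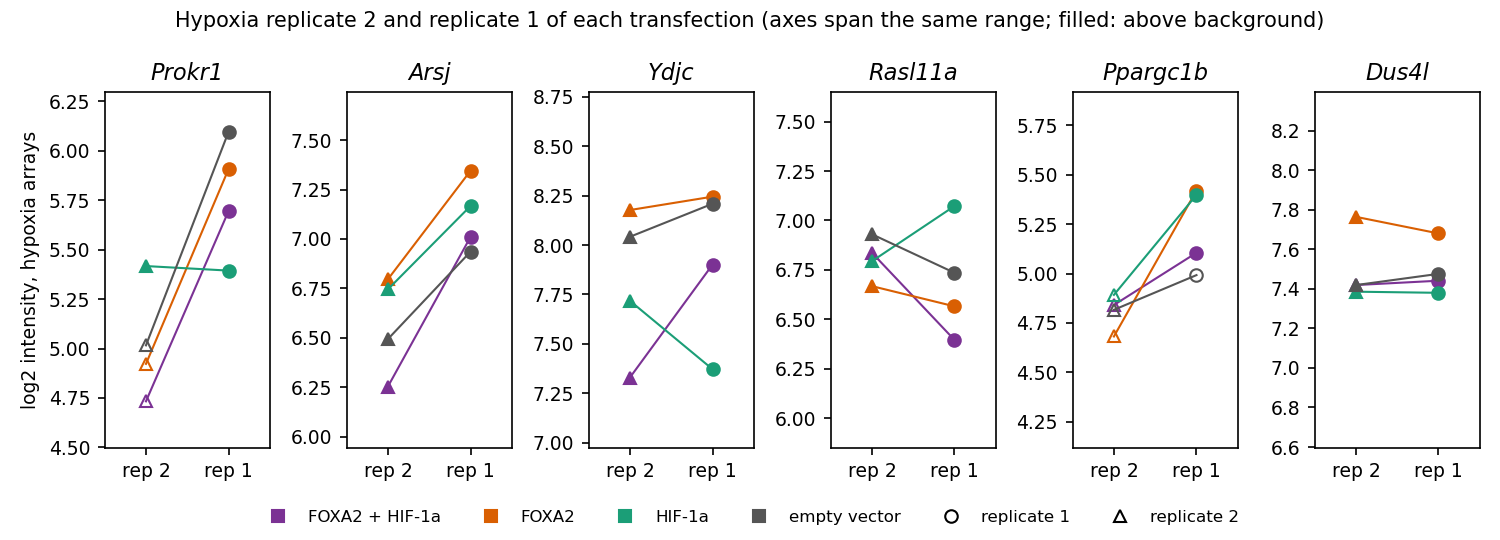
Log2 intensity of replicate 2 (triangles) and replicate 1 (circles) of each transfection in hypoxia, joined by lines and coloured by transfection, open where not above background. Axes differ in level but span the same range: Arsj and Ppargc1b lie lower in replicate 2 in all 4 transfections and Prokr1 in 3, while the Dus4l lines are nearly flat.

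The hypoxia falls were therefore also set out by replicate. With the replicate 1 hypoxia arrays only, against the same 4 normoxia arrays, the differences were -1.60 for Prokr1, -1.62 for Arsj, -1.62 for Ydjc, -1.61 for Rasl11a, -1.30 for Ppargc1b and -1.27 for Dus4l. The first 4 of these genes then had nearly the same fall. With the replicate 2 hypoxia arrays only, a choice made after seeing the data, they were -2.35 for Prokr1, -2.16 for Arsj, -1.74 for Ydjc, -1.49 for Rasl11a and -1.27 for Dus4l. Of these, the Prokr1 value rests on signals mostly not above background, with 1 of 4 replicate 2 arrays above it. Ppargc1b, with no replicate 2 array above background, was at least 2.26-fold lower. Within slide 1, which holds 3 hypoxia and 3 normoxia arrays, all of replicate 1, the differences ran between -1.67 for Ydjc and -1.22 for Ppargc1b. Within slide 2 the one normoxia array is that with both plasmids, whose differences are given above. Without the bright FOXA2 plus HIF-1a replicate 1 array the 6 differences lay between -2.06 for Prokr1 and -1.27 for Dus4l.

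The plasmids were compared over all 12 arrays, 6 with and 6 without each, in a fit that also held oxygen. None of Prokr1, Arsj and Ppargc1b was called for either plasmid. With the FOXA2 plasmid Prokr1 averaged 5.99 against 6.12 without (-0.12 ± 0.23), Arsj 7.51 against 7.44 (0.07 ± 0.16) and Ppargc1b 5.52 against 5.52 (-0.01 ± 0.14). With the HIF-1a plasmid Prokr1 averaged 6.0 against 6.11 without (-0.11 ± 0.23), Arsj 7.40 against 7.55 (-0.15 ± 0.16) and Ppargc1b 5.56 against 5.49 (0.07 ± 0.14). All these differences are smaller than their SE. Of all genes 0.0208% were called for FOXA2 and 0.0104% for HIF-1a. For the dependence of one plasmid on the other, limma called 0 of 9609 genes, with 326 at an unadjusted p under 0.05.

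Dus4l, Ydjc and Rasl11a were picked partly for falls in particular transfections, so their plasmid values are given without a test. Pairs of arrays were matched for oxygen, replicate number and the other plasmid, but not for slide. All arrays with both plasmids lie on slide 2, so some pairs span the slides. Dus4l was 0.18 ± 0.07 higher with FOXA2, in 6 of 6 matched pairs of arrays, and -0.21 ± 0.07 with HIF-1a, higher in 0 of 6 pairs. Its mean was 8.01 with FOXA2 and 7.83 without, and 7.82 with HIF-1a and 8.02 without. Ydjc averaged 8.25 with HIF-1a and 8.62 without, a difference of -0.37 ± 0.15, and its other probe did not separate these arrays in hypoxia. Rasl11a averaged 7.16 with FOXA2 and 7.37 without, a difference of -0.21 ± 0.11, and was higher with FOXA2 in 1 of 6 pairs. How often all genes reach such pair counts was not worked out, so nothing is read from them.

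Across the 8 hypoxia arrays the 6 genes did not move as one set. Of their 15 pairs, 8 had a correlation above 0, from -0.54 for Ydjc with Rasl11a to 0.80 for Arsj with Ppargc1b, with a median of 0.03. Prokr1 and Arsj had r = 0.76, and Prokr1 and Ppargc1b 0.61. These 3 genes had the largest differences between replicates, and the arrays share replicate numbers and slides. Of them, Prokr1 was above background on 5 of the 8 arrays and Ppargc1b on 3, so their correlations rest partly on background signal.

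For each gene, those with the most similar pattern were taken by Pearson's r, over the 12 arrays, where the gap between oxygen levels dominates, and over the 8 hypoxia arrays alone. Over 12 arrays they were Pus7l (0.98), Fam185a and Ptx3 for Prokr1, and Ercc8 (0.99), Snhg5 and Pus7l for Arsj. For Rasl11a they were Shroom3 (0.98), Itpripl1 and En1, for Ppargc1b St6galnac4 (0.98), Mcrip2 and Fez1, and for Dus4l Ercc8 (0.97), Adat2 and Pcbp4. Ydjc was closest to Qtrt1 (0.995), Sdhaf1 and Hirip3. Over the 8 hypoxia arrays the lists differed, with Pdpk1, Tmem144 and Rpa2 for Prokr1, Fgfbp3, Ubxn2a and Frk for Arsj, Mettl2, Pogk and Rpl34 for Rasl11a, Jazf1, H2ac15 and Nlrc5 for Ppargc1b, and Clk4, Zfp266 and Mep1a for Dus4l. Of the genes in these lists, Tmem144, Ubxn2a, Pogk, Jazf1, Nlrc5 and Mep1a averaged 4.80 to 5.29 in hypoxia, near background. The dimmest detected probe of each hypoxia array lay at 5.03 to 5.38. The lists of Prokr1 and Ppargc1b also carry the limit of background signal given above. Only Ydjc kept its closest gene, Qtrt1 (0.98), followed by Tle4 and Snx7. Qtrt1 encodes the catalytic subunit of the enzyme that inserts queuine into tRNA. On the second Ydjc probe the hypoxia correlation with Qtrt1 was -0.22, so this likeness held for 1 of the 2 probes.

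Families of the 6 genes were then set beside them, with each family gene tested for hypoxia against normoxia in the limma fit over all 12 arrays. Among all genes 15.9% were called lower and 14.4% higher. Of 43 measured tRNA modification enzymes, the family set beside Dus4l, 20 fell, 1 rose and 22 did not pass, with a median difference of -0.35, against -0.02 over all genes. Of these 43 genes, 36 had a difference below 0, and in 17 all hypoxia arrays lay below all normoxia arrays. Over all 9609 genes, 5033 had a difference below 0 and 13.2% showed that separation. Ctu2, which thiolates the wobble uridine, averaged 10.10 in hypoxia and 11.12 in normoxia (-1.01 ± 0.09, adjusted p = 2.44e-05). Adat2, a subunit of the tRNA adenosine deaminase, averaged 8.70 in hypoxia and 9.61 in normoxia (-0.91 ± 0.09, adjusted p = 3.07e-05). Trub1, a pseudouridine synthase, averaged 7.68 in hypoxia and 9.04 in normoxia (-1.36 ± 0.14, adjusted p = 6.43e-05). The exception in direction was Trmt112, a partner of several methyltransferases, which rose to 7.33 in hypoxia against 6.37 in normoxia (0.97 ± 0.10, adjusted p = 5.14e-05). The count of falling enzymes was 12 in a fit with a mean per group. Among the other dihydrouridine synthases Dus1l fell by 0.46 ± 0.10 (adjusted p = 0.0046), Dus2 gave -0.16 ± 0.12 and Dus3l 0.02 ± 0.12, and the last 2 did not pass. Replicate 2 of hypoxia was lower than replicate 1 for 5 of the 43 enzymes, Trub1 among them (-0.44 ± 0.11, adjusted p = 0.034), and higher for 0.

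**Figure D5:**
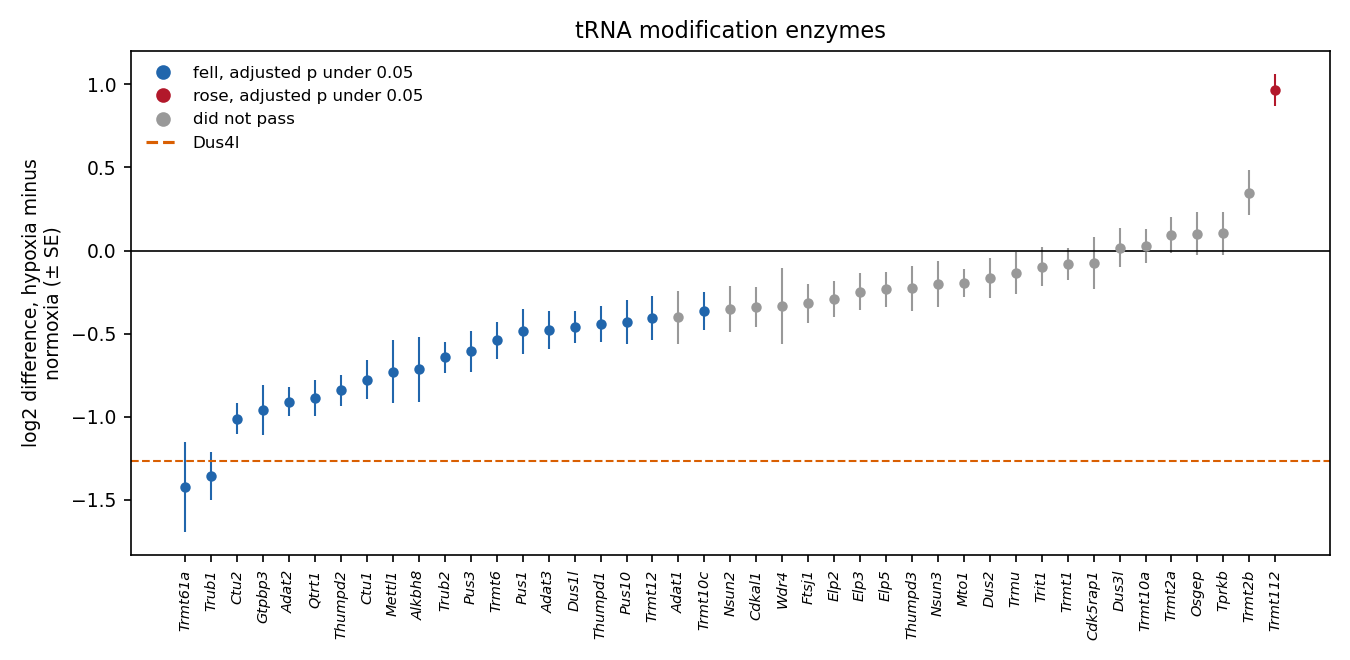
Log2 difference, hypoxia minus normoxia, with its SE for the 43 measured tRNA modification enzymes in order of size, blue where the enzyme fell, red where it rose and grey where it did not pass at an adjusted p of 0.05. The dashed line is Dus4l at -1.27; 20 enzymes fell, and Trmt112 is the only one that rose.

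Of 15 measured genes around PGC-1 and mitochondrial transcription, set beside Ppargc1b, 3 fell, 1 rose and 11 did not pass, with a median of -0.14. Pprc1, a relative of Ppargc1b in the same coactivator family, averaged 9.49 in hypoxia and 10.59 in normoxia (-1.11 ± 0.17, adjusted p = 7.63e-04). Esrra, an estrogen-related receptor, fell by 0.42 ± 0.10 and Tfb1m, a mitochondrial rRNA methyltransferase, by 0.62 ± 0.15. The nuclear receptor Ppard rose to 11.07 in hypoxia against 9.98 in normoxia (1.08 ± 0.09, adjusted p = 1.35e-05). Tfam, which packages and transcribes mitochondrial DNA, gave -0.24 ± 0.11 and did not pass. The number that fell was 2 in a fit with a mean per group. It was 5 without the bright FOXA2 plus HIF-1a replicate 1 array, with hypoxia replicate 2 only, in the authors' processed table, without background correction and with the probes of a gene averaged.

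Of 9 measured sulfatases and their modifying factors 2 fell and 2 rose, with a median of 0.24. Sgsh, the lysosomal heparan N-sulfatase, averaged 5.77 in hypoxia and 6.36 in normoxia (-0.59 ± 0.18), and Sumf2 8.96 in hypoxia and 9.46 in normoxia (-0.50 ± 0.10). Arsa, the lysosomal arylsulfatase A, averaged 9.94 in hypoxia and 9.31 in normoxia (0.63 ± 0.10). Sumf1, which activates sulfatases, was above background on 4 of 8 hypoxia arrays and 0 of 4 normoxia arrays, with measured means of 5.28 in hypoxia and 4.89 in normoxia, and was at least 1.03-fold higher in hypoxia. In a fit blocked on replicate Sgsh gave -0.43 (adjusted p = 0.087), which left 1 falling gene, and with averaged probes Sumf2 gave -0.21 (adjusted p = 0.12). In this family 1 gene also fell when slides were blocked, on slide 1 only, with hypoxia replicate 1 only, and when the HIF-1a normoxia array, the normoxia array with both plasmids or the control replicate 2 hypoxia array was left out.

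Of 16 measured RAS-like GTPases 1 fell and 3 rose, with a median of 0.06. Rerg, an estrogen-regulated RAS-like protein, averaged 5.51 in hypoxia and 6.68 in normoxia (-1.17 ± 0.18). Rasl12 averaged 7.40 in hypoxia and 5.45 in normoxia (1.94 ± 0.30), Rap2a 8.65 in hypoxia and 7.77 in normoxia (0.87 ± 0.11), and Rala, which acts in vesicle traffic, 8.92 in hypoxia and 8.25 in normoxia (0.67 ± 0.09). The sizes for Rerg, dim in hypoxia, and Rasl12, dim in normoxia, depended on the background correction. With the larger offset of 50 Rerg gave -0.77 and Rasl12 1.40. Rasl11b, the closest named relative of Rasl11a, gave -0.29 ± 0.15 and did not pass. In this family 2 genes fell without the replicate 1 hypoxia array of empty vector, FOXA2 or HIF-1a, or without replicate 2 of both plasmids. With the hypoxia arrays of replicate 1 only 2 fell, and with those of replicate 2 only, an alternative chosen after seeing the data, 4 fell. Rasl12 was higher in hypoxia replicate 2 than in replicate 1 (1.09 ± 0.12, limma adjusted p = 0.0016), and its difference from normoxia was 2.49 with replicate 2 only and 1.40 with replicate 1 only.

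Among 6 measured genes of prokineticin and Gq signalling, Gnaq, the Gq alpha subunit, averaged 9.11 in hypoxia and 9.75 in normoxia (-0.64 ± 0.22, adjusted p = 0.045). Itpr3, a calcium-release channel, averaged 9.52 in hypoxia and 9.09 in normoxia (0.43 ± 0.12, adjusted p = 0.021). The other 4 did not pass. Gnaq was lower in hypoxia replicate 2 than in replicate 1 (-0.76 ± 0.11, limma adjusted p = 0.0044). Its difference from normoxia was -1.02 with replicate 2 only and -0.26 with replicate 1 only, it was not called in a fit blocked on replicate (-0.26, adjusted p = 0.072), and it was called in 10 of the 24 alternatives. Itpr3 was called in 17 of 24. Of 11 measured deacetylases and amino sugar enzymes 0 fell and 2 rose, with 9 not passing. Those 2 were Renbp, which acts on N-acetyl sugars, at 9.97 in hypoxia and 9.44 in normoxia (0.54 ± 0.11), and Nagk, which phosphorylates N-acetylglucosamine, at 8.57 in hypoxia and 7.97 in normoxia (0.60 ± 0.13).

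Of 6 measured genes that lie next to these genes on the chromosome, 1 fell, 1 rose and 4 did not pass. Bcap29, 5391 bases from Dus4l, averaged 9.87 in hypoxia and 10.59 in normoxia (-0.72 ± 0.13, adjusted p = 0.0024). Dus4l also overlaps Cog5 by 48 bases, and no probe was named Cog5. Aplf, next to Prokr1, was 0.37 ± 0.12 higher in hypoxia (adjusted p = 0.036), and was not called in a fit blocked on replicate (0.26, adjusted p = 0.11) or in 13 other alternatives of 24. Camk2d beside Arsj, Ube2l3 beside Ydjc, and Rpl21 and Gtf3a beside Rasl11a lay between -0.11 and 0.11 and did not pass. The neighbours of Ppargc1b had no detected probe.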

How the data were processed

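RNA samples of TRAMP-C cells, 12 in all and grouped by the sample labels, were measured on Illumina Mouse-6 BeadChips. The authors deposited a table of linear probe intensity, not normalized, for 45281 probes, with a detection p-value beside each intensity. The authors also deposited a processed intensity table of 26415 probes, used here as an alternative, for which the labels name no normalization. Its columns had medians of 86.1 to 86.2. Columns left unused numbered 0.

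Intensities were background-corrected with neqc (limma 3.58.1, R 4.3.3; offset 16, background from the detection p-values), quantile normalized and taken to log2. A probe was kept if 2 or more arrays gave it a detection p-value under 0.01, which left 17436 probes, of which 14981 had 1 gene symbol in the platform annotation, and each of 9609 genes was represented by its brightest detected probe. Where a side was below background on all its arrays, its mean was replaced, per array, by the higher of its own signal and the dimmest detected probe, and the fold is given as "at least".

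Oxygen, FOXA2, HIF-1a and their interaction were fitted in 1 limma model over 12 arrays, and replicate number plus transfection in another over the 8 hypoxia arrays, with Benjamini-Hochberg adjustment over all genes and a threshold of 0.05. The scripts were tested on simulated data. Hypoxia arrays were paired across transfections by the labels' replicate numbers. Same-numbered arrays deviated together in all 6 pairs of transfections (r from 0.29 to 0.78). In all transfections but the one with both plasmids, replicate number and slide coincide. There these correlations cannot tell a shared replicate from a shared slide. Promoter windows and gene positions come from RefSeq on GRCm38.p6, where all 6 genes matched. Values after ± are SE of log2 differences unless called SD, and the number of arrays limits the precision.

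The 6 genes and the family and marker lists were chosen with earlier results of these data known. The named genes were the 6 genes, up to 4 members of each family list with the smallest p, the 3 genes most like each gene and its chromosomal neighbours; Rasl11b, Tfam, Dus1l, Dus2 and Dus3l were added after their values were seen.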

Additional observations from a re-analysis of the deposited data

How the results depend on the processing

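The falls of the 6 genes kept their direction under all 24 alternatives run (other background corrections, filters and probe rules, the authors' processed table, replicate or slide blocks, and each array left out). They ranged from -2.35 to -1.37 for Prokr1, -2.16 to -1.61 for Arsj, -1.83 to -1.49 for Ydjc, -1.61 to -1.30 for Rasl11a and -1.30 to -1.13 for Dus4l. The -2.35 of Prokr1 came with hypoxia replicate 2 only, where 1 of 4 arrays was above background. For Ppargc1b the falls ranged from -1.59 to -0.92 over 23 of the alternatives, and with hypoxia replicate 2 only the fall was at least 2.26-fold. With the replicate block 2888 genes were called for oxygen, against 2918 without it, and the calls of Gnaq, Sgsh and Aplf ended. With or without this block 20 tRNA modification enzymes fell. The count for oxygen was 1628 with a mean per group and 5082 with hypoxia replicate 2 only, an alternative chosen after seeing the data, and 1797 to 3300 with 1 array left out (1864 without the FOXA2, 1797 without the HIF-1a and 1917 without the FOXA2 plus HIF-1a normoxia array). The count between replicates was 1581, and 477 to 1913 with 1 array left out (664 without a control and 477 without a FOXA2 hypoxia array). Falling tRNA modification enzymes numbered 12 with a mean per group and 14 to 23 with 1 array left out.

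Small plasmid and replicate differences, none past the test, changed sign, and the cause was not tested. With the slide as a block the FOXA2 difference was 0.083 for Prokr1 and 0.13 for Ppargc1b, the HIF-1a difference 0.095 for Prokr1, and the interaction 0.23 for Prokr1 and 0.18 for Ppargc1b. On slide 1 only, Ppargc1b gave 0.12 for FOXA2 and Arsj 0.019 for HIF-1a. With hypoxia replicate 1 only, Prokr1 gave 0.013 and Ppargc1b 0.037 for FOXA2, and Prokr1 0.030 for the interaction. The Rasl11a interaction was 0.00017 in the processed table, 0.00056 without background correction and 0.0028 with offset 50. Arsj gave -0.019 for FOXA2 as the mean of its probes, and Ydjc 0.037 between replicates without the FOXA2 plus HIF-1a pair. With 1 array left out the FOXA2 difference ranged from -0.25 to 0.046 for Prokr1, -0.019 to 0.18 for Arsj, -0.066 to 0.16 for Ydjc and -0.12 to 0.079 for Ppargc1b. The HIF-1a difference ranged from -0.25 to 0.058 for Prokr1 and -0.014 to 0.18 for Ppargc1b. The interaction ranged from -0.51 to 0.092 for Prokr1, -0.45 to 0.0030 for Ydjc, -0.14 to 0.16 for Rasl11a and -0.26 to 0.13 for Ppargc1b. The replicate difference ranged from -0.27 to 0.037 for Ydjc and -0.024 to 0.023 for Dus4l.

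Signal over background limits Ppargc1b in hypoxia and Prokr1 in hypoxia replicate 2. The lone normoxia array of each transfection was assumed to vary like the other groups.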
